A study of Canis lupus familiaris with 5 samples.

Results

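The cells described here are the ELANE-high cells of canine whole marrow, labelled promyelocytes. They were chosen by measured values: a barcode of a whole-marrow library was kept with at least 200 genes and at most 10% of its unique molecular identifiers (UMIs, the counted molecules) from mitochondrially encoded genes, and was a member when ELANE took 1% or more of its UMIs and the erythroid genes AHSP, HBM and CA1 together took less than 0.5%. This gave 1016 cells of the 16223 kept whole-marrow barcodes, or 6.26%, and of 24708 kept barcodes in all 5 libraries. The study profiled wild-type healthy dogs by droplet 3′ single-cell RNA sequencing: 3 libraries of unsorted femoral marrow (whole marrow 1, 2 and 3) and 2 libraries of viable CD34+ cells sorted from marrows 2 and 3. Red cells were lysed before loading, and the protocol admitted only whole-marrow samples with over 70% viable cells and under 25% neutrophils by flow cytometry. No treatment was given, and age and breed are not given in the sources used here. The labels do not say which CD34-sorted library came from which of the 2 marrows.

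Promyelocytes are the stage of neutrophil development at which the primary (azurophil) granules are made. Their contents, among them the serine protease neutrophil elastase (ELANE) and the heme enzyme myeloperoxidase (MPO), are translated at the endoplasmic reticulum and packed for storage. Secondary granules, which carry cathelicidin (CAMP) and lactoferrin (LTF), are filled at the next stage, the myelocyte, and tertiary granule proteins such as the gelatinase MMP9 come later still. Gene roles below are those known from human and mouse.

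The whole-marrow libraries held 54074420, 46114431 and 47219133 UMIs. The members carried more RNA than the average kept barcode: their median was 13720.5, 13091 and 19730 UMIs in whole marrow 1, 2 and 3, against 2694, 3689 and 4344 over all kept barcodes. They therefore supplied 14.3%, 8.90% and 10.7% of the kept UMIs. Their median mitochondrial share was 4.44%, 3.93% and 4.51%, above the 1.1%, 1.54% and 1.76% of all kept barcodes. Of the members, 22, 7 and 7 were scored as doublets, or 4.30%, 2.53% and 3.08%, which was below the 5.84%, 3.66% and 3.48% scored among all kept barcodes. Scored doublets were left in. Any pair of libraries shared between 4 and 12 barcodes, and none of these was a member in both.

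Whole marrow 1 held 512 members, or 7.02% of its kept barcodes (95% exact binomial interval 6.44 to 7.63, which covers counting error only). Whole marrow 2 held 277, or 6.04% (5.37 to 6.77), and whole marrow 3 held 227, or 5.23% (4.58 to 5.93). The mean of the 3 shares was 6.10% ± 0.897 (SD, n = 3), and the intervals of whole marrow 1 and 3 did not overlap. The median ELANE share of the members was 4.69%, 6.43% and 5.90% of a cell's UMIs, and the highest was 9.86%, 10.6% and 15.9%. Most members lay far above the limit: 734 cells (72.2%) held 4% or more, 193 held 2 to 4% and 89 held 1 to 2%. Around the limit, 12 cells lay at 1 to 1.1% and 11 barcodes at 0.9 to 1%. At 0.5 to 1% the 3 libraries held 67 barcodes, beside the 89 members at 1 to 2%, a wider bin. Because ELANE chose the members, no separation by ELANE is read from these counts.

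**Figure D1:**
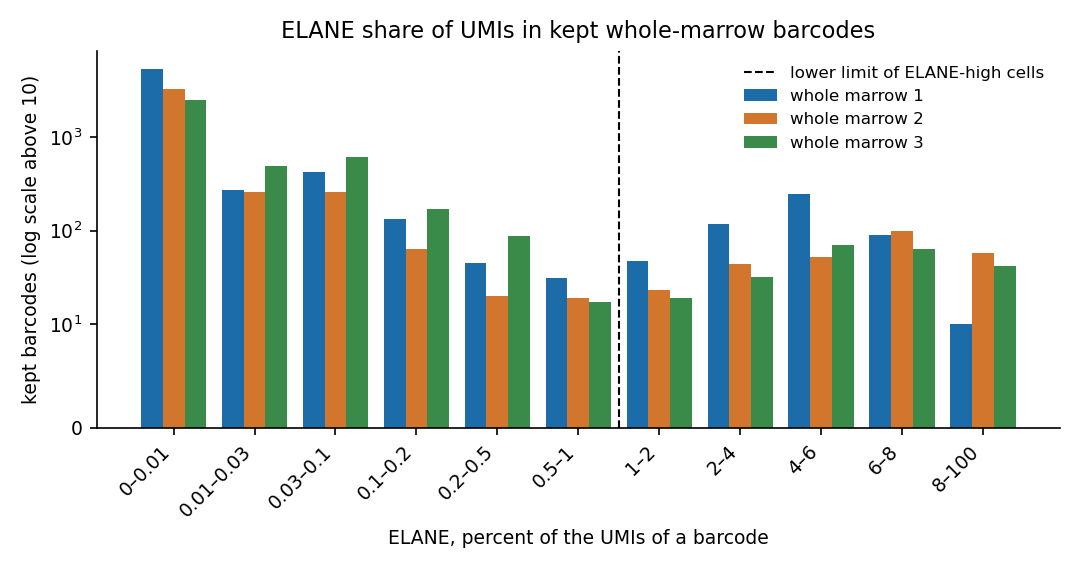
Kept whole-marrow barcodes (vertical axis, log scale above 10) by the percent of their UMIs that came from ELANE (horizontal axis, bins of unequal width), with 1 bar per library. The dashed line marks the 1% limit. The bin at 0.5 to 1% holds 31, 19 and 17 barcodes in whole marrow 1, 2 and 3, and the wider bin at 1 to 2% holds 47, 23 and 19.

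The CD34-sorted libraries, which the rule did not use, held almost none of these cells. By the same limits, CD34-sorted 1 held 3 of 4720 kept barcodes (0.0636%) and CD34-sorted 2 held 19 of 3765 (0.505%). The mean share was 0.284% there and 6.10% in whole marrow, a difference of 5.81 percentage points. All 3 whole-marrow libraries lay above both sorted ones, and the exact two-sided permutation p over the 10 splits was 0.1, the smallest that 3 against 2 libraries can give. The libraries are not independent, because the sorted cells came from the same dogs as 2 of the whole marrows. The ELANE limit that chose the members also made these shares, and the sort selected on CD34. No conclusion is drawn from this p.

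The members carried all 5 marker genes named for them. SLPI, the secretory leukocyte protease inhibitor, which blocks neutrophil elastase, was their most abundant transcript, at 144810, 99342 and 111870 CPM in whole marrow 1, 2 and 3 (CPM: UMIs of a gene scaled to a common library total). The other kept cells of the same libraries held 1884, 733 and 1325. ELANE itself stood at 46237, 62104 and 57907 CPM. Together these transcripts of a protease and its inhibitor were the 2 most abundant in the cells, with mean shares of 11.9% (SLPI) and 5.54% (ELANE) of all UMIs. MPO, which makes hypochlorous acid from hydrogen peroxide, stood at 3706, 5046 and 5145 CPM against 249, 305 and 133 in the other cells. PLAC8A was at 1926, 2533 and 2988 against 455, 587 and 508. Every library had higher levels in the members for each of these genes. Because the cells were chosen by ELANE and the markers were named from these data, the values are a description and were not tested.

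Ranked by the ratio of mean levels to the other kept whole-marrow cells, again as a description, ELANE came first at 244-fold, followed by SLPI (90.3), GZMB (54.7) and MPO (20.2). The list then held ALOX15, a lipoxygenase (8.94), ALAS1, the first and rate-limiting enzyme of heme synthesis (8.71), SRGN, the proteoglycan core on which granule proteases are stored (8.09), and BPI, a primary granule protein that kills Gram-negative bacteria (6.65). SERPINB1, an inhibitor of neutrophil serine proteases, stood at 5.03 and PLAC8A at 4.80. The endoplasmic reticulum chaperones and folding enzymes SDF2L1 (3.70), HSPA5 (3.24) and PDIA6 (3.21) were also among the 20 leading genes. PLAC8A was the least particular of the named markers: erythroid cells held 694, 915 and 689 CPM of it.

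Transcripts this abundant also turned up in cells that should lack them. To compare cells of unequal depth, each was thinned to 2000 UMIs, and cells with fewer were left out. This left out 26, 11 and 4 members and 52, 26 and 2 T cells in whole marrow 1, 2 and 3. SLPI was then detected in 99.8%, 98.9% and 99.1% of the members, and in 44.6%, 24.1% and 38.5% of T cells (at least 2 of CD3E, CD3D, CD3G and CD2 detected). For ELANE the T-cell shares were 13.5%, 14.7% and 27.4%. Median depth before thinning, with the cells left out included, was 2509, 2928.5 and 4723 UMIs in the T cells against 13720.5, 13091 and 19730 in the members. The source of these UMIs in T cells was not tested, and shares of this size in other cells are not read as expression. The T cells had no limit on ELANE, and 3, 0 and 5 of them were also members.

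**Figure D2:**
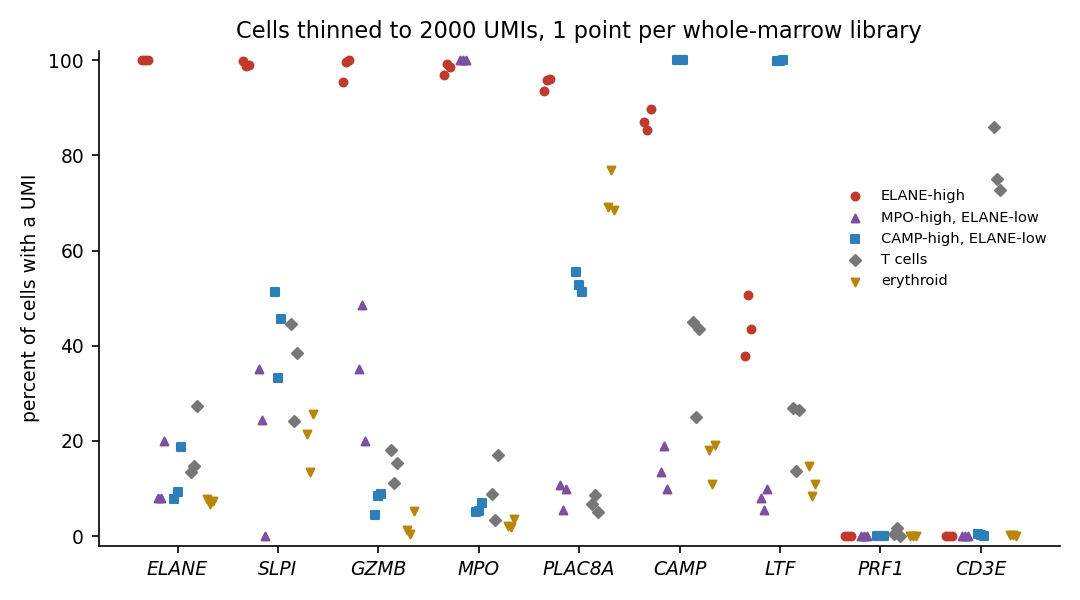
Percent of cells with at least 1 UMI of each gene after thinning to 2000 UMIs, with 1 point per whole-marrow library for ELANE-high, MPO-high, CAMP-high, T and erythroid cells. Cells with fewer than 2000 UMIs were left out. The ELANE-high cells lie above 90% for ELANE, SLPI, GZMB, MPO and PLAC8A, while the T-cell points for SLPI lie between 24.1% and 44.6%. The source of SLPI in T cells was not tested. For PLAC8A the erythroid points are also high.

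GZMB, which encodes granzyme B, the protease that cytotoxic T and NK cells use to kill their targets, was among the leading transcripts of these neutrophil precursors. It stood at 2090, 6812 and 6625 CPM in the members of whole marrow 1, 2 and 3, and at 53.6, 103 and 127 in the other kept cells. Whole marrow 1 was about a factor of 3 below the other libraries, and all 3 were far above the remaining cells. After thinning, 95.5%, 99.6% and 100% of the members held a GZMB UMI, against 18.1%, 11.2% and 15.4% of T cells and 5.31% or fewer of erythroid cells in any library. Other genes of cytotoxic lymphocytes were low. Of 12 cytotoxic lymphocyte genes matched by symbol, all 12 stayed under 10 CPM in every library and their summed level was 5.89, 4.0 and 17.6. PRF1, the pore-forming perforin, was at 0 in the 1016 cells, as were FASLG, CTSW, EOMES and TBX21. PRF1 was also scarce in the T cells of the same libraries, at 6.57, 2.24 and 1.78 CPM, so its zero says little. In those T cells CTSW stood at 73.2, 169 and 96.0 CPM, GZMA at 103, 248 and 26.7 and CCL5 at 2173, 151 and 395.

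Markers of other lineages were low. The summed level in the members was 4.15, 4.75 and 12.6 CPM for 9 T-cell markers, 31.9, 57.0 and 61.2 for 10 monocyte and macrophage markers and 58.9, 122 and 58.7 for 11 erythroid markers. For 5 megakaryocyte markers it was 1.34, 2.25 and 2.73, and for 8 endothelial and stromal markers 2.95, 1.75 and 1.47. Among the B-cell markers, CD79A was counted at 5487, 4928 and 5274 CPM in the members and at higher levels in T cells (9498, 8453 and 8417), so it did not mark B cells in these files. The other 9 B-cell markers summed to 4.29, 2.25 and 18.04. For 7 plasma cell markers the sum was 426, 406 and 315, nearly all of it FKBP11, and for 6 plasmacytoid dendritic markers it was 10.2, 15.5 and 15.7. The eosinophil, basophil and mast list summed to 486, 488 and 387, most of it from ALOX15 and PADI3. The eosinophil peroxidase gene EPX was at 0, 0.5 and 0 CPM although ALOX15, which eosinophils also use, was at 414, 413 and 273.

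Which of these transcripts set the cells apart from their neighbours in the neutrophil lineage was examined against both sides. The earlier neighbours were taken as MPO-high, ELANE-low cells (MPO at 0.2% or more of UMIs, ELANE under 0.1%), and the later ones as CAMP-high, ELANE-low cells (CAMP at 1% or more, ELANE under 0.1%), with the same limits on barcodes and erythroid genes. The members had no limit on CAMP. Their median CAMP share was 0.803%, 0.836% and 1.19% of UMIs, against 7.05%, 6.59% and 7.99% in the later cells. Part of the members therefore also reached the 1% CAMP limit, and only the ELANE limits kept them out of the later cells. The UMIs of each kind were summed per library and compared within libraries by the quasi-likelihood test of edgeR. P-values were adjusted over all genes tested by the Benjamini-Hochberg method, and a gene was called at an adjusted p under 0.05. Genes that define either kind of cell were given no call. Fold changes are on the log2 scale after TMM normalisation, with standard errors (SE). Depth, mitochondrial share and cell type differ together between the kinds of cell, and their part in the results was not tested.

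The later cells numbered 2144, 1292 and 1203, with a median of 3455, 4004.5 and 6070 UMIs. Of 7805 genes tested, 5557 were called (71.2%), with 2814 higher in the ELANE-high cells (36.1%) and 2743 lower (35.1%), so that a call by itself says little about a gene here. MPO fell out of the later cells almost completely, from 3706, 5046 and 5145 CPM to 35.5, 42.4 and 46.3. GZMB went from 2090, 6812 and 6625 to 63.1, 142 and 142, and SLPI from the levels above to 3207, 1865 and 1773. These 3 genes, which were named as markers from these data and are given without a p, differed by log2 6.80 (MPO), 5.74 (SLPI) and 5.40 (GZMB). The libraries of the 2 kinds of cell did not overlap for any of these chosen genes. How often that held over all genes is not given here, so nothing is read from it.

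Beyond the markers, the largest rises were those of RASL11A (log2 5.57 ± 0.16 SE), SRGN (4.82 ± 0.29), GCAT, a mitochondrial enzyme of threonine breakdown (4.80 ± 0.24), and FKBP11, a prolyl isomerase of the secretory pathway (4.42 ± 0.10). SRGN held 325, 425 and 520 CPM in the ELANE-high cells and 8.69, 21.7 and 16.0 in the CAMP-high cells. EBPL (4.28), PCBD1 (3.66) and DCTPP1, which clears abnormal nucleotides (3.61), completed the 10 largest rises by the naming rule. The largest falls were those of INHBA (-6.73 ± 0.25), the collagenase MMP8 (-6.61 ± 0.50), MMP9 (-6.32 ± 0.42), the vitamin B12 carrier TCN1 (-6.21 ± 0.43) and QPCT (-5.79 ± 0.17). MMP8 was at 16.6, 11.5 and 5.03 CPM in the ELANE-high cells and at 1083, 1387 and 893 in the CAMP-high cells. CD177, FADS1, WIPI1, the complement factor properdin (CFP) and the peptidoglycan-binding PGLYRP1 followed, from -5.77 to -5.56. The 17 differences of the naming rule other than these markers passed edgeR's quasi-likelihood test with adjusted p at most 0.0065. With both kinds of cell limited to barcodes of at least 5000 UMIs, a check chosen after seeing the data, MMP9 (-4.73, adjusted p = 0.059) and PGLYRP1 (-3.02, adjusted p = 0.0999) lost their calls in that test.

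The earlier cells were few: 46, 40 and 11, with a median of 32717, 39951 and 37264 UMIs. They held more marker transcripts of other lineages than the ELANE-high cells: the monocyte and macrophage list summed to 162, 323 and 125 CPM and the plasmacytoid dendritic list to 110, 95.5 and 58.5. The part of these in the differences, those of LY86 and IRF8 among them, was not tested. Only whole marrow 1 and 2 reached the 20 cells set for a sum, so the test rests on 2 dogs and 1 residual degree of freedom, and its p-values lean on the spread shared across genes. Of 7080 genes tested, 3672 were called (51.9%), 1816 higher in the ELANE-high cells (25.6%) and 1856 lower (26.2%). This even split is set by the TMM normalisation. On library totals alone the median of all genes lay at log2 -1.0 instead of -0.05, a shift of -0.95, and the calls divided into 323 higher and 4525 lower. DESeq2 called 1126 higher and 553 lower. A fitted change under about 1 therefore has a direction only relative to the median gene.

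The largest rises against the earlier cells were those of CAMP and SLPI. CAMP went from 129 and 47.4 CPM in the MPO-high cells of whole marrow 1 and 2 to 11201 and 11687 (log2 8.08 ± 0.30 SE). SLPI went from 1048 and 700 to 144810 and 99342 (8.08). The third library, which was not in the test, held CAMP at 53.5 in its 11 MPO-high cells and at 15998 in its ELANE-high cells, in the same direction. CHI3L1 (6.28 ± 0.34), S100P (6.13 ± 0.25), the iron-binding secondary granule protein LCN2 (6.06 ± 0.24), PLAC8A (5.58) and the granule hormone resistin, RETN (5.01 ± 0.19), came next. TESC (4.97), TSPAN2 (4.89) and CPNE3 (4.77) were the others among the 10 largest. GZMB, already present in the earlier cells at 309 and 785 CPM, was higher by log2 3.89 in the members.

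Of 10 stem and early progenitor genes tested against the earlier cells, 5 were lower (CD34, FLT3, SOX4, KIT and HOXA9) and 3 were higher (PROM1, SPINK2 and MYB) by TMM, or 7 lower and 1 higher on library totals. Over all genes 26.2% were lower and 25.6% higher by TMM. CD34, the surface protein used for the sort, was at 86.3 and 84.3 CPM in the MPO-high cells and at 3.08 and 4.25 in the ELANE-high cells (-3.61 ± 0.24). CASP12 (-4.03 ± 0.32), MDFIC (-3.98 ± 0.31), ESAM (-3.88 ± 0.31) and ALDH5A1 (-3.59 ± 0.29) fell more or about as much, and HIPK2, LRRK2, CCDC88A, LY86 and AKR1B1 fell by between 3.17 and 2.43 on the log2 scale. KIT, the stem cell factor receptor, went from 54.5 and 61.3 CPM to 5.89 and 9.76 (-1.98 ± 0.23). Adjusted p in edgeR's quasi-likelihood test was at most 1.37e-09 for the 18 genes of the naming rule other than the markers SLPI and PLAC8A. The call of CAMP ended on library totals, where its log2 change was 7.11 (adjusted p = 0.0606), and that of RETN ended when the MPO-high cells were allowed up to 1% ELANE (3.47, adjusted p = 0.0853). Against the CD34-sorted MPO-high cells CTSC and MYB kept no call. LCN2, LRRK2 and FLT3 each lost its call in at least 1 of the fits that left out a whole-marrow library. In fits that left out a sorted library, LY86, IRF8, PRSS57, NPM1, CXCR4, CSTA and RPS12 also each lost its call at least once. There the lone other sorted library was assumed to vary like the whole-marrow group.

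**Figure D3:**
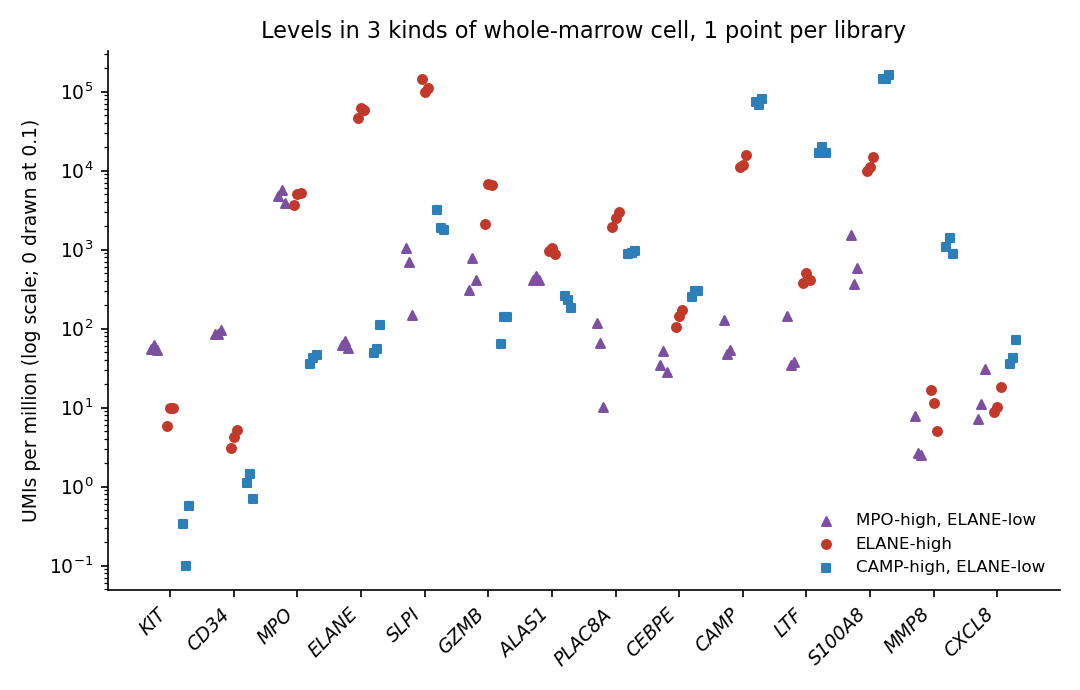
CPM (log scale, 0 drawn at 0.1) of 14 genes in MPO-high ELANE-low, ELANE-high and CAMP-high ELANE-low cells, with 1 point per whole-marrow library. ELANE, SLPI and GZMB are highest in the ELANE-high cells, MPO is at similar levels in the MPO-high and ELANE-high cells, and KIT and CD34 are highest in the MPO-high cells; MPO, ELANE and CAMP chose the kinds of cell.

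CAMP, which was used to choose the cells compared with, was itself the fourth most abundant transcript of the ELANE-high cells, at 1.30% of their UMIs, while the listed secondary granule genes, CAMP not among them, summed to 864, 940 and 678 CPM. Of 26 listed primary granule genes, 17 were matched by symbol. Against the CAMP-high cells 9 of these 17 were higher and 5 lower, with a median log2 change of 0.62 beside -0.00 over all genes. Of all genes 36.1% were higher and 35.1% lower. BPI stood at 1342, 1344 and 1579 CPM against 260, 227 and 294 (2.45 ± 0.08 SE). CTSC, the peptidase that activates the granule serine proteases, was higher by 2.75 ± 0.14, and the serine protease PRSS57 by 0.74 ± 0.07. LYZ (lysozyme), which is stored in several kinds of granule, was lower, at 12207, 17892 and 18505 against 20924, 25874 and 22400 (-0.53 ± 0.05), and its call was lost without the library block and with a 5% mitochondrial limit, where its difference was -0.01. Against the MPO-high cells 7 of 14 tested were higher and 1, CTSZ, was lower by TMM, beside 25.6% higher and 26.2% lower over all genes. There BPI was higher by 3.15 ± 0.19, SRGN by 3.53 ± 0.17 and LYZ by 2.29 ± 0.24, while MPO, which chose the cells, was at 4781 and 5657 CPM in the MPO-high cells of whole marrow 1 and 2. On library totals the list split into 5 higher and 4 lower, and CTSC and PRSS57 lost their calls.

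Of the secondary granule genes, 7 of 8 tested were lower than in the CAMP-high cells (median -5.47) and CHI3L1 was higher (1.20 ± 0.12). Over all genes 35.1% were lower than in the CAMP-high cells, and by TMM 25.6% were higher than in the MPO-high cells. LTF was at 377, 509 and 409 CPM against 16704, 19999 and 16905, a difference of -5.38 ± 0.07. Against the MPO-high cells 5 of 7 were higher and none was lower, with a median of 3.39. LTF was not among them, at 145 and 34.3 CPM in the MPO-high cells of whole marrow 1 and 2 (3.39 ± 1.13, adjusted p = 0.28 by edgeR's quasi-likelihood test); with sums of at least 10 cells, which added whole marrow 3, it was called (3.60, adjusted p = 0.0286). All 7 tertiary granule genes tested and all 10 mature neutrophil genes tested were lower than in the CAMP-high cells, with medians of -4.15 and -3.72. The alarmin S100A8 stood at 10007, 11266 and 14673 CPM against 144060, 146310 and 161240 in the CAMP-high cells. The 5 tested subunits and partners of the phagocyte NADPH oxidase, the enzyme complex of the respiratory burst, were all lower than in the CAMP-high cells and, by TMM, all higher than in the MPO-high cells, 3 of them also on library totals. CYBB, its catalytic subunit, was at 24.8 and 41.5 CPM in the MPO-high cells of whole marrow 1 and 2, 53.2, 103 and 83.5 in the ELANE-high cells and 226, 408 and 333 in the CAMP-high cells.

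The protein synthesis and secretion machinery stood high in the ELANE-high cells against the later cells. Of 39 genes of endoplasmic reticulum folding and secretion, 34 were higher and 3 lower than in the CAMP-high cells (median 1.33). Over all genes 36.1% were higher and 35.1% lower. Calreticulin, CALR, was at 179, 323 and 203 CPM against 18.5, 19.1 and 19.0 (3.58 ± 0.12), and the chaperone HSPA5 at 416, 560 and 301 against 159, 220 and 128.05 (1.33 ± 0.08). Among ribosomal protein genes 55 of 56 were higher (median 1.40), and among ribosome biogenesis genes 26 of 30 (median 2.24). NPM1, the nucleolar chaperone nucleophosmin, was at 693, 648 and 668 against 93.7, 91.6 and 88.6 (2.88 ± 0.08). All 13 mitochondrially encoded genes were higher too (median 1.67), beside a median mitochondrial share of 0.953%, 0.968% and 1.23% in the CAMP-high cells; barcodes over 10% were left out of both kinds.

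Against the MPO-high cells the picture parted by list. Over all genes 25.6% were higher there and 26.2% lower by TMM. Ribosome biogenesis genes were lower, 22 of 31 with 4 higher (median -0.59), and NPM1 held 2672 and 2038 CPM in the MPO-high cells. Folding and secretion genes were higher by TMM, 28 of 39 with 2 lower (median 0.83), but on library totals 10 were higher and 15 lower (median -0.13). The direction of that list and of the ribosomal proteins (42 of 56 higher by TMM, 12 higher and 31 lower on library totals) thus rests on the scaling. The ribosome biogenesis genes were lower under both, with 29 of 31 lower on library totals. HSPA5 (1.47 ± 0.15) and SDF2L1 (1.53 ± 0.16) were higher under both scalings, while PDIA6 kept no call on library totals.

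**Figure D4:**
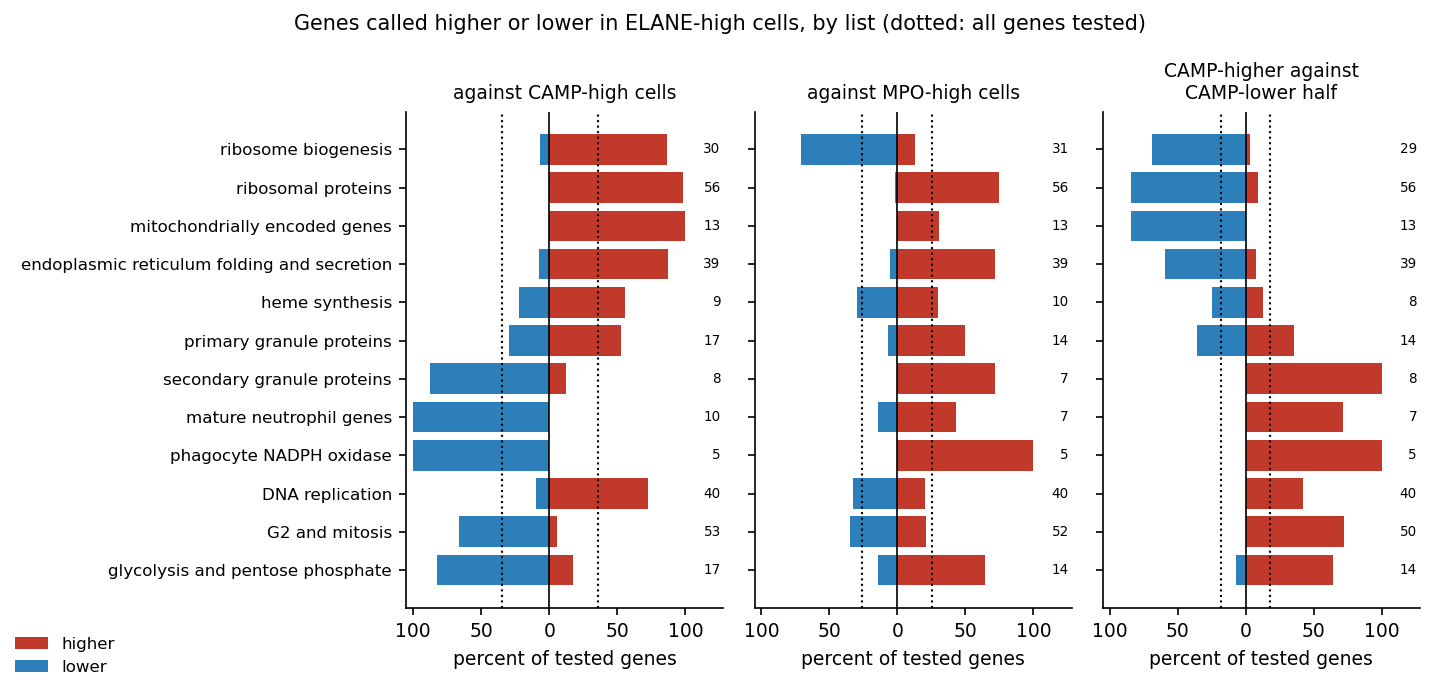
Percent of the tested genes of each list called higher (red, to the right) or lower (blue, to the left) at adjusted p under 0.05, against CAMP-high cells, against MPO-high cells, and in the CAMP-higher against the CAMP-lower ELANE-high cells; numbers at the right give genes tested and dotted lines the percent called over all genes. Secondary granule and oxidase genes are lower than in the CAMP-high cells and higher than in the MPO-high cells; in the middle panel the bars of the folding and secretion, ribosomal protein and other lists with small changes depend on the TMM normalisation.

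Heme synthesis was led by a single gene. ALAS1, the non-erythroid form of its first enzyme, was at 959, 1036 and 889 CPM in the ELANE-high cells, 257, 234 and 182 in the CAMP-high cells and 408, 466 and 410 in the MPO-high cells. The fitted change was log2 2.11 ± 0.07 SE against the CAMP-high cells and 2.14 ± 0.17 against the MPO-high cells. The second value is relative to the median gene. On library totals the median of all genes shifted by -0.95 there, and by -0.001 against the CAMP-high cells, so the 2 values are not alike in scale. Of 9 genes of the list tested against the CAMP-high cells, 5 were higher, ALAD (1.17) and UROD (1.1) among them, and 2 were lower. Over all genes 36.1% were higher in that comparison and 35.1% lower. Against the MPO-high cells 3 of 10 were higher and 3 lower by TMM, near the 25.6% higher and 26.2% lower over all genes. On library totals 1 was higher and 7 were lower. SERPINB1 was also highest in the ELANE-high cells, at 3286, 3728 and 3199 CPM against 2172, 2424 and 1783 in the CAMP-high cells and 650, 741 and 219 in the MPO-high cells. SERPINA1, the plasma elastase inhibitor alpha-1-antitrypsin, was lower than in the CAMP-high cells, at 8.04, 13.5 and 12.8 against 147, 287 and 284 (-4.36 ± 0.11).

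The transcription factors listed for granulopoiesis summed to 586, 821 and 736 CPM, below the CAMP-high cells (1276, 1808 and 1530) and the MPO-high cells (1006, 1283 and 965). CEBPE, which drives the step to secondary granules, was at 104, 143 and 171 CPM, below the 255, 302 and 302 of the CAMP-high cells (-1.06 ± 0.08) and above the 34.7 and 52.7 of the MPO-high cells of whole marrow 1 and 2 (2.44 ± 0.16). MYB, a factor of proliferating progenitors, was at 86.5, 113 and 81.8 against 20.8, 22.0 and 15.8 in the CAMP-high cells (2.26 ± 0.10). MYC was higher than in the CAMP-high cells by 4.14 ± 0.27 and lower than in the MPO-high cells by 0.86 (log2 -0.86 ± 0.22). The latter call of MYC ended with DESeq2 (-0.78, adjusted p = 0.15) and without the library block. GFI1, a repressor needed for neutrophil rather than monocyte fate, was higher than in the CAMP-high cells by 0.79 ± 0.10, whereas SPI1 (PU.1) was lower by 1.68 (log2 -1.68 ± 0.08). IRF8, which favours monocytes and dendritic cells, was nearly gone, at 0.402, 0.25 and 0.21 CPM against 9.20, 13.8 and 12.7 in the MPO-high cells (-3.91 ± 0.60). Over the list, 7 of 27 tested were higher and 16 lower than in the CAMP-high cells, where 36.1% of all genes were higher and 35.1% lower. Against the MPO-high cells 5 of 19 were higher and 9 lower by TMM, or 1 higher and 12 lower on library totals. There 25.6% of all genes were higher and 26.2% lower by TMM, so the share of higher factors was near that of all genes.

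CXCR4, the receptor that holds cells in the marrow, was at 23.2, 20.8 and 23.9 CPM in the ELANE-high cells, below the 279, 354 and 349 of the CAMP-high cells and the 176, 141 and 163 of the MPO-high cells. Of 11 homing and adhesion genes tested against the CAMP-high cells, 10 were lower and 1, the integrin ITGA4, was higher (3.06 ± 0.16). Over all genes 36.1% were higher than in the CAMP-high cells and 35.1% lower. Against the MPO-high cells 4 of 10 were higher (ITGAM, CD47, ITGB2 and ITGB1) and 5 lower by TMM, or 1 higher and 6 lower on library totals. Over all genes 25.6% were higher there and 26.2% lower by TMM. Of 12 cytokine and growth factor receptors tested against the CAMP-high cells, 8 were lower and 2, KIT and FLT3, were higher. CSF2RA, a chain of the GM-CSF receptor, was at 0.268, 0.25 and 0 CPM against 9.13, 13.3 and 13.2 in the CAMP-high cells. Of 8 receptors tested against the MPO-high cells, 4 were lower (IL6ST, FLT3, KIT and TLR4) and 0 were higher by TMM. On library totals 7 were lower and 0 higher.

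By counts of calls, cell-cycle genes parted by phase against the later cells, dividing or not. Over all genes 36.1% were higher there and 35.1% lower. Of 40 DNA replication genes tested, 29 were higher and 4 lower than in the CAMP-high cells (median 0.76), while of 53 genes of G2 and mitosis 3 were higher and 35 lower (median -0.38). The helicase subunit MCM2 was higher by 1.73 ± 0.26 SE, and the ribonucleotide reductase subunit RRM2, at 58.3, 72.3 and 70.9 CPM against 101, 99.0 and 110, was lower (-0.63 ± 0.09). The proliferation antigen MKI67 was at 61.1, 96.6 and 80.1 against 139, 170 and 145. Of the CAMP-high cells, 907, 527 and 532 held 2 or more UMIs of the G2 and mitosis list. Against these alone the replication gene PCNA lost its call (0.04, adjusted p = 0.69 by edgeR's quasi-likelihood test), and 64 other genes followed kept theirs unchanged. PCNA also lost it with at least 5000 UMIs (0.15, adjusted p = 0.27 in that test). The 2 lists were not counted in those fits. After thinning to 2000 UMIs, 68.3%, 78.9% and 66.4% of the ELANE-high cells held a UMI of the G2 and mitosis list, against 37.0%, 34.1% and 31.4% of the CAMP-high cells. The order of those shares goes against the summed level of the list, and no order is read from them. Against the MPO-high cells 11 of 52 G2 and mitosis genes were higher and 18 lower by TMM, and none was higher and 39 were lower on library totals. By TMM 25.6% of all genes were higher and 26.2% lower.

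The ELANE-high cells were not uniform. The cells of each library were ranked by CAMP and divided into 4 bins of near-equal size. The lowest bin held a median CAMP share of 0.0324%, 0.0217% and 0.0529% of UMIs and the highest bin 3.82%, 4.31% and 4.64%. MPO fell along this order in every library, from 4960, 6745 and 7060 CPM in the lowest bin to 1791, 2328 and 2316 in the highest. ELANE did not follow MPO: it was highest in the second bin, at 52241, 72876 and 72770, and lowest in the fourth, at 33816, 37206 and 36770. SLPI was likewise lower at both ends, with 107110, 72718 and 79421 in the lowest bin and 170440, 127410 and 142830 in the second. PLAC8A went from 1319, 1558 and 1911 in the lowest bin to 2552, 3026 and 3592 in the highest. Depth moved with CAMP: the median fell from 19751, 22229.5 and 27024 UMIs to 10352.5, 9899 and 16383, and the mitochondrial share from 5.94%, 4.96% and 6.58% to 3.32%, 2.87% and 3.39%. Thinning the sums to equal totals gave 1963 calls in the comparison that follows, but it left the depth of single cells as it was. The part of depth in these patterns was not tested.

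**Figure D5:**
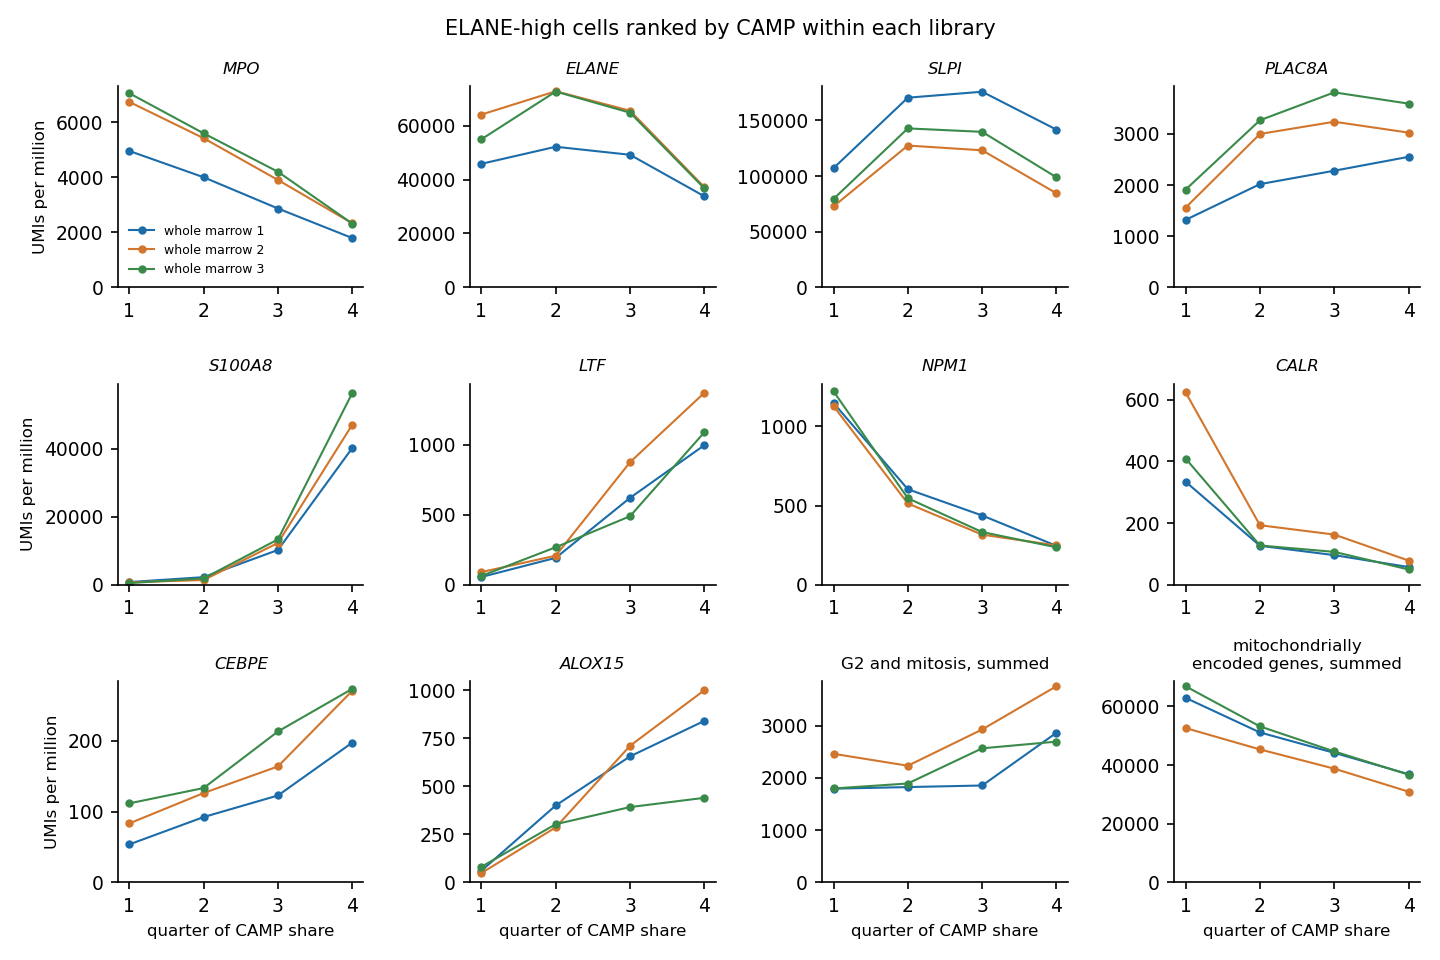
CPM (vertical axes, each from 0) in ELANE-high cells split within each library into 4 bins of the CAMP share (horizontal axes, lowest to highest), for 10 genes and the summed levels of 2 lists, with 1 line per library. MPO, NPM1, CALR and the mitochondrially encoded genes fall, S100A8, LTF, CEBPE and ALOX15 rise, and ELANE and SLPI peak in the middle.

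Cells above and below the median CAMP share of each library were then compared within libraries. Of 5937 genes tested, 2112 were called (35.6%), 1048 higher in the CAMP-higher cells (17.7%) and 1064 lower (17.9%). On library totals the median of all genes shifted by -0.16 and 692 were higher and 1642 lower. Secondary granule genes rose together, 8 of 8 tested, with a median of 2.55. LTF was at 116, 138 and 150 CPM in the CAMP-lower cells and at 788, 1092 and 779 in the CAMP-higher cells (log2 2.86 ± 0.13 SE). CD177 rose by 4.95 ± 0.32, MMP8 by 2.93 ± 0.25 and LCN2 by 2.23 ± 0.09. Of the primary granule genes 5 of 14 rose and 5 fell: LYZ went from 5718, 5796 and 7365 to 22431, 36897 and 34342, while MPO fell by 0.79 on the log2 scale (SE 0.03). GZMB (0.21 ± 0.03) and SLPI (0.36 ± 0.01) rose slightly; GZMB kept no call on library totals (0.05), and SLPI turned to -0.18 with a 5% mitochondrial limit.

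By the naming rule the largest rises with CAMP were those of S100A8 (4.74 ± 0.33), RETN (3.88 ± 0.18), S100A12 (3.26 ± 0.29), CRISP2, a secreted cysteine-rich protein (3.03 ± 0.17), the secreted carbonic anhydrase CA6 (3.02 ± 0.13), LTF, LYZ (2.44 ± 0.22) and the quinone reductase NQO1 (2.35 ± 0.10). The Wnt inhibitor DKK4 fell most (-2.95 ± 0.19), from 45.1, 52.4 and 58.6 CPM to 7.24, 3.86 and 5.59. NQO2 (-2.53 ± 0.15), GCAT (-2.40 ± 0.25), VKORC1, an enzyme of the vitamin K cycle (-1.99 ± 0.16), PRDX1 (-1.93 ± 0.11), FKBP11 (-1.63 ± 0.08), CALR (-1.61 ± 0.07) and the peptide transporter TAP1 (-1.61 ± 0.13) followed. Adjusted p in edgeR's quasi-likelihood test was at most 0.0197 for these 16 genes. The call of S100A8 ended without whole marrow 2 (4.65, adjusted p = 0.125) and without whole marrow 3 (4.53, adjusted p = 0.122). That of S100A12 ended without whole marrow 2 (3.1, adjusted p = 0.139) or 3 (3.13, adjusted p = 0.172), with scored doublets removed (3.67, adjusted p = 0.0562) and with a 5% mitochondrial limit (2.48, adjusted p = 0.0536). That of LYZ ended without whole marrow 3 (2.46, adjusted p = 0.183) and with the 5% limit (1.56, adjusted p = 0.054). ALOX15 went from 60.2, 48.2 and 80.8 CPM in the lowest CAMP bin to 840, 999 and 439 in the highest, but did not pass the test between CAMP-higher and CAMP-lower cells (2.02 ± 0.35, adjusted p = 0.064 by edgeR's quasi-likelihood test). It was called without whole marrow 1 (2.05), without whole marrow 2 (1.72) and by DESeq2 (2.05).

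Growth genes moved the other way. Of 29 ribosome biogenesis genes 20 fell and 1 rose (median -0.64), of 56 ribosomal protein genes 47 fell and 5 rose (median -0.26), and of 39 folding and secretion genes 23 fell and 3 rose (median -0.22). NPM1 went from 1147, 1127 and 1221 CPM in the lowest CAMP bin to 246, 249 and 237 in the highest. Of 13 mitochondrially encoded genes 11 fell. Of 7 stem and early progenitor genes tested 3 fell (CD34, KIT and MYB), 1 rose (CD48) and 3 were not called. KIT changed by -1.77 ± 0.32 and MYB by -0.83 ± 0.09. Of 14 transcription factors tested 4 rose, CEBPE among them (1.23 ± 0.08), and 3 fell, MYC among them (-1.64 ± 0.27). Over all genes 17.7% rose and 17.9% fell. CD34 was counted at 3.89, 11.7 and 15.4 CPM in the lowest bin and was at 0 in the upper 2 bins of every library. Division genes rose within the same cells: 36 of 50 G2 and mitosis genes and 17 of 40 DNA replication genes were higher in the CAMP-higher cells and none of either list was lower. On library totals 29 of 50 and 10 of 40 were higher and 1 replication gene was lower. MKI67 was at 52.5, 78.5 and 64.8 CPM in the lowest bin and at 103, 148 and 123 in the highest.

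Some of the spread between the 3 dogs was shared by the members and the other kept cells of a library. Over the 670 genes with at least 100 CPM in the members of every library, the median range across libraries was 0.29 on the log2 scale. GAPDH, a glycolytic enzyme often used as a reference gene, was at 152, 890 and 837 CPM in the members, a range of 2.55, and at 389, 1620 and 1857 in the other cells, a range of 2.26. S100A11 (145, 1053 and 863) and TPT1 (943, 3493 and 3690) showed the same low level in whole marrow 1, again in members and other cells alike. Tests within libraries take such differences out.

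The genes beside ELANE and GZMB in the RefSeq gene order of the assembly UU_Cfam_GSD_1.0, which is not the build of the files and is used only for that order, were also looked up. PLPPR3, next to ELANE, was at 11.7, 7.76 and 17.6 CPM in the members and at 0.111, 0.16 and 0 in the CAMP-high cells, a fitted change of log2 6.96. MED16 and PTBP1, farther out on either side, were higher by 0.56 and 0.83, and R3HDM4, beyond MED16, was lower (-3.62), at 0.134, 0.25 and 0.839 CPM against 4.57, 6.1 and 4.23. CMA1, a chymase gene near GZMB, was at 15.4, 18.01 and 25.2 against 6.35, 3.21 and 3.20 (2.16 ± 0.22). CTSG and LOC490629, between CMA1 and GZMB, and CFD, between MED16 and ELANE, were not matched by symbol. Their levels are therefore not known here. Overlapping reads between neighbours cannot be told apart from separate transcripts in these files.

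The 19 ELANE-high cells of CD34-sorted 2 differed in makeup from those of whole marrow, as a description of a single library. They held ELANE at 19359 CPM, SLPI at 8126 and CAMP at 261, all below every whole-marrow library, and MPO at 8049 and NPM1 at 2576.5, above every one. GZMB was at 4265, within the whole-marrow range. CD34 was at 69.5 and KIT at 58.2 CPM, against at most 5.24 and 9.86 in the whole-marrow members.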

How the data were processed

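The deposited files hold raw UMI counts per gene and barcode for 5 libraries; the authors made them with Cell Ranger, version 7.1.0 and build CanFam3.1 per the submitters' processing notes, while the file headers name version 7.0.1. The deposited barcodes (27953) all held at least 500 UMIs. Gene names came from the files, where 4432 of 20257 features carry no symbol and are not named here. Members, gene lists and comparisons were chosen with earlier results of these data known. Marker lists held other cell types as well. UMIs were summed per library and kind of cell with at least 20 cells, and tested with edgeR 4.0.16 (TMM, filterByExpr, robust quasi-likelihood fit, R 4.3.3) with the library as a block. The fits were tested on simulated data. Sums of the same library come from the same dog, and their deviations correlated at r = 0.78, 0.60 and 0.58 against CAMP-high cells, 0.70 against MPO-high cells, and 0.77, 0.58 and 0.53 between CAMP-higher and CAMP-lower cells. Levels are CPM of the summed counts, without composition scaling, so they compare a gene between groups and not genes by molecule number per cell. Cells are not replicates; n is the library. Named genes are the 10 largest rises and falls (8 for CAMP-higher against CAMP-lower) among genes with a symbol, adjusted p under 0.05, at least 50 CPM in the higher group and the same direction in every library; members of the lists are also given by value. Doublets were scored with the scrublet method in scanpy 1.11.5 at 0.8% per 1000 cells. Call totals and changed signs under other limits, tools (DESeq2 1.42.0) and scalings are given at the end, with the calls that ended without the library block. Other lost calls are given beside the gene, and for part of the genes only. The fits on library totals, with at least 10 cells per sum or at least 5000 UMIs, on dividing CAMP-high cells only and without single libraries of the sorted comparison were chosen after seeing the data.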

Additional observations from a re-analysis of the deposited data

How the results depend on the processing

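The number of ELANE-high cells stayed between 927 and 1083 with ELANE limits of 2% and 0.5% and with the other limits on barcodes, except that a 5% mitochondrial limit left 673. The difference in share from the CD34-sorted libraries was 5.35 to 6.25 points when each library was left out and 5.97 and 5.46 with ELANE at 0.5% and 2%. Against CAMP-high cells the calls ran from 3851 without the replicate block to 6122 without a low-count filter, all within 1.5 times of 5557, and from 5098 to 5235 without each replicate. Against MPO-high cells (3672 calls) DESeq2 gave 1679, the fit without the replicate block 1014, and the fit with at least 10 cells per sum 3489, or 2059 without the block and 2294 to 3672 when a replicate was left out. With CD34-sorted MPO-high cells it gave 3457, and 1224 to 3738 when a library was left out (1224 without CD34-sorted 2, 1510 without CD34-sorted 1, where the lone sorted library is assumed to vary like whole marrow). Limits of 5% mitochondrial UMIs or 0.5% MPO left too few cells for that comparison, and leaving out a replicate of its 2 libraries left no residual degrees of freedom. Between CAMP-higher and CAMP-lower cells (2112 calls) DESeq2 gave 981, the fit without the replicate block 343, a 5% mitochondrial limit 1155, and leaving out each replicate 1501 to 1759. Splitting by ELANE instead of CAMP, ELANE-lower minus ELANE-higher, gave 843 calls and other signs for NQO2 (0.34), GCAT (0.062), PRDX1 (0.55), TAP1 (1.03), SLPI (-0.996), GZMB (-0.57), PLAC8A (-0.37), BPI (-0.50), MYC (0.31) and NPM1 (0.20). With the 5% limit SLPI (-0.18) and BPI (-0.011) turned, and on library totals MYB against MPO-high cells turned to -0.34. Among the genes followed, calls that ended without the replicate block were those of LYZ, NCF4, PCNA and GAPDH against CAMP-high cells. Against MPO-high cells they were those of CASP12, CTSC, MYB, MYC, NPM1, CSTA and RPS12. Between CAMP-higher and CAMP-lower cells they were those of CRISP2, SLPI, GZMB, PLAC8A, BPI, SRGN, MMP8, LCN2, TOP2A, ALAS1, HSPA5, SDF2L1, MT-ND1 and RPS12. The causes were not tested. The MPO-high sums of the main comparison held 46 and 40 cells.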
